A study of Mus musculus with 36 samples.

Results

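Imprinted genes are expressed mainly from the copy inherited from one parent, and 36 of them were followed through the embryonic mouse forelimb. They were taken by gene symbol from a list of known imprinted genes, not by any value in these libraries, and all 36 were found among the 55052 genes of the deposited expression table and among the 50833 genes of the deposited count table. Earlier results of these data were known when the list was chosen. They lie in 16 chromosomal clusters, with 14 of the 36 on chromosome 7.

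Imprinting is set by DNA methylation that is laid down in the egg or the sperm at imprinting control regions and kept through later cell divisions. Many clusters pair genes that work in opposite directions on growth, such as the growth factor Igf2 and the receptor Igf2r that removes it, and many hold a long non-coding RNA that is read from the parental copy on which neighbouring genes are silent. At the H19 and Igf2 locus the choice of copy rests on binding of the insulator protein CTCF, and the RNAs of the Dlk1-Dio3 locus carry a large group of microRNAs. In the embryo these genes are best known for growth of the placenta and fetus, and for muscle, cartilage, brain and fat. The libraries count RNA from both parental copies together, so the parent of origin named below for each gene is background and was not measured.

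Poly(A) RNA came from forelimbs at embryonic stage E12.5 of strain B6CBAF1 mice, and each limb pair was micro-dissected into distal forelimb, the prospective hand, and proximal forelimb, the prospective arm. The wild type (WT) was set beside 5 alleles that remove CTCF binding sites (CBS) at the Hoxd gene cluster on chromosome 2: Del(CBS1), which lacks 1 site, then Del(CBS1-2), and further Del(CBS1-3) and Del(CBS1-4), up to Del(CBS1-5), in which the runs of sites named were removed. Whether embryos carried 1 or 2 copies of a deletion is not given in the labels. Each of the 12 groups of tissue and genotype held 3 libraries, and distal and proximal libraries with the same number were matched to the same embryo by their RNA, so 36 libraries stand for 18 embryos. Library totals ran from 11062069 to 17727891 counts (median 14069935). None of the deleted sites lies in an imprinted locus studied here, although H13, Nnat, Blcap and Gnas share chromosome 2 with Hoxd. Markers of distal limb summed to 1714 to 2088 CPM (reads scaled to a common library size) in distal libraries and 126 to 448 in proximal ones, and markers of proximal limb to 184 to 256 and 632 to 1040 CPM, so every library matched its tissue label. The distal list includes Hoxd13 and its neighbour Evx2, of the region whose sites were deleted, at means of 904 and 108 CPM in distal libraries.

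Start regions of 4 genes are shown because the results below name them: Dlk1 and Meg3 stood at much lower levels in the distal limb, while Kcnq1ot1 and Phlda2, neighbours on chromosome 7, passed the test in Del(CBS1-2), the first lower in distal and the second higher in proximal tissue. Both of these calls were lost when some single libraries were left out. Each window holds 250 bases before and 50 bases after a transcription start, 5′ to 3′ on the gene's own strand, from RefSeq on GRCm38.p6, with every CpG dinucleotide, the unit that DNA methylation marks, in capitals.
Dlk1, chr12:109452573-109452872, plus strand: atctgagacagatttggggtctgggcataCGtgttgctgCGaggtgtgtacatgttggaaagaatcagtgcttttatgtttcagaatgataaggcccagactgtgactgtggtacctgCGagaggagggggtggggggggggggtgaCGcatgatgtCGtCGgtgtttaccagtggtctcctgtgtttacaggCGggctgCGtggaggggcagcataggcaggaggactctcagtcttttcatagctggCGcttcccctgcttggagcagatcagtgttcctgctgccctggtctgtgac
Meg3, chr12:109540746-109541045, plus strand: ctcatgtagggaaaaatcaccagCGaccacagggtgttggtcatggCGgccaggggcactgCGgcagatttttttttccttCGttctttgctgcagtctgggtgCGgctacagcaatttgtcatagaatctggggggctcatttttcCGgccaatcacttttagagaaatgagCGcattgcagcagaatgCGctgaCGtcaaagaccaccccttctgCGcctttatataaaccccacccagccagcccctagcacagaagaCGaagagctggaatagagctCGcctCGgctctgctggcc
Kcnq1ot1, chr7:143296498-143296797, minus strand: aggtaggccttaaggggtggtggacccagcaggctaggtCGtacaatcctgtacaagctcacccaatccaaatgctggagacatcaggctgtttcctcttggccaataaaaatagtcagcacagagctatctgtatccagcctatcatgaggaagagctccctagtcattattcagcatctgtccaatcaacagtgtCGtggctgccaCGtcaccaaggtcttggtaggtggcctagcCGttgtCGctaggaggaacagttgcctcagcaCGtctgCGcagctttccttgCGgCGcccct
Phlda2, chr7:143502475-143502774, minus strand: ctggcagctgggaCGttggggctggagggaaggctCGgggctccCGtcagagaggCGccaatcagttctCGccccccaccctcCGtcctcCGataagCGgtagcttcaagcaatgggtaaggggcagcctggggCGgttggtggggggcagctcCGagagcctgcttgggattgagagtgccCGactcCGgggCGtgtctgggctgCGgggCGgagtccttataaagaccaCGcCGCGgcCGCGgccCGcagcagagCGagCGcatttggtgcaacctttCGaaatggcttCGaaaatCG
The windows hold 9 CpG in Dlk1, 13 in Meg3, 9 in Kcnq1ot1 and 26 in Phlda2. Of the 36 genes, 29 had at least 1 window in the RefSeq table, 45 windows in all, with a median of 13 CpG against 7 over all 32851 windows of the same length, and 13 of the 45 held 20 or more, as did 26.5% of all windows. The motif TATAAA, searched on both strands, stands 25 bases before the Meg3 start, overlapping a match on the opposite strand at 29 bases, and 30 bases before the Phlda2 start, and 13.6% of all windows hold it. CCAAT was found once in Meg3 and Phlda2 and 3 times in Kcnq1ot1, against 37.4% of windows with at least 1 match. Neither motif occurred in the Dlk1 window. These matches describe letters and not binding.

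Several of the RNAs measured are hosts of microRNAs, short RNAs whose bases 2 to 8 (the seed, in capitals) pick their targets. RefSeq places 26 mature microRNAs within Mirg, 6 within Rian and 3 within Meg3, all on the host's strand, and 11 within Rtl1 on the opposite strand with 2 on its own. H19, Igf2 and Mest each host 2. Examples are shown for these genes, with none from Meg3. Those opposite Rtl1 lie on the other strand and are not products of the Rtl1 RNA.
miR-675-5p, within H19: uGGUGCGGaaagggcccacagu
miR-483-3p, within Igf2: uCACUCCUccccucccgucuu
miR-335-5p, within Mest: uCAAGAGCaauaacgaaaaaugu
miR-370-3p, within Rian: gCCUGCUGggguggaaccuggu
miR-410-3p, within Mirg: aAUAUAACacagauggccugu
miR-127-3p, opposite Rtl1: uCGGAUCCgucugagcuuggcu
miR-434-3p, opposite Rtl1: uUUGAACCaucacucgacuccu
miR-453, within Mirg: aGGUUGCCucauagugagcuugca
miR-496a-5p, within Mirg: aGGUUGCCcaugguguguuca
The last pair, both from Mirg, share the seed GGUUGCC, the only seed that occurred more than once in the set. Poly(A) libraries do not capture mature microRNAs, so only the host RNAs were measured.

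The imprinted genes supplied 1.203% to 1.49% of all counts in the 18 distal libraries (median 1.38%) and 2.58% to 2.97% in the 18 proximal libraries (median 2.80%). H19, a long non-coding RNA and the most abundant of them, took 0.409% to 0.603% of distal counts and 1.09% to 1.23% of proximal counts, and ranked 1 or 2 among all genes by count in every library. On a per-length scale (FPKM, mean ± SD over the 18 libraries of a tissue), H19 stood at 2102 ± 249 in distal tissue, above Gnas, a G protein subunit, at 1232 ± 62.5, and Igf2 at 599 ± 78.1. In proximal tissue H19 reached 4807 ± 224 FPKM, Igf2 1712 ± 106 and Gnas 1316 ± 59.4, so Igf2 and Gnas changed places. The order then ran, in distal tissue, through Nnat at 349 ± 38.7, Mest at 275 ± 19.99, Cdkn1c at 246 ± 29.5 and Grb10 at 243 ± 8.78 FPKM, of which Cdkn1c and Grb10 lie within each other's spread. Below these, Meg3 and Rian stood at 71.8 ± 21.3 and 57.6 ± 14.9 FPKM, also within their spread. At the low end, distal Rtl1 averaged 0.0199 ± 0.0104 FPKM, and Ascl2, Dio3, Kcnq1ot1, Kcnq1 and Slc22a18 were all under 1 FPKM in both tissues on average. Of these, Kcnq1ot1 was not low in reads: it averaged 611 a library, spread over a model of 93092 exon bases. Gnas is a complex locus with transcripts from either copy, which gene totals do not separate.

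**Figure D1:**
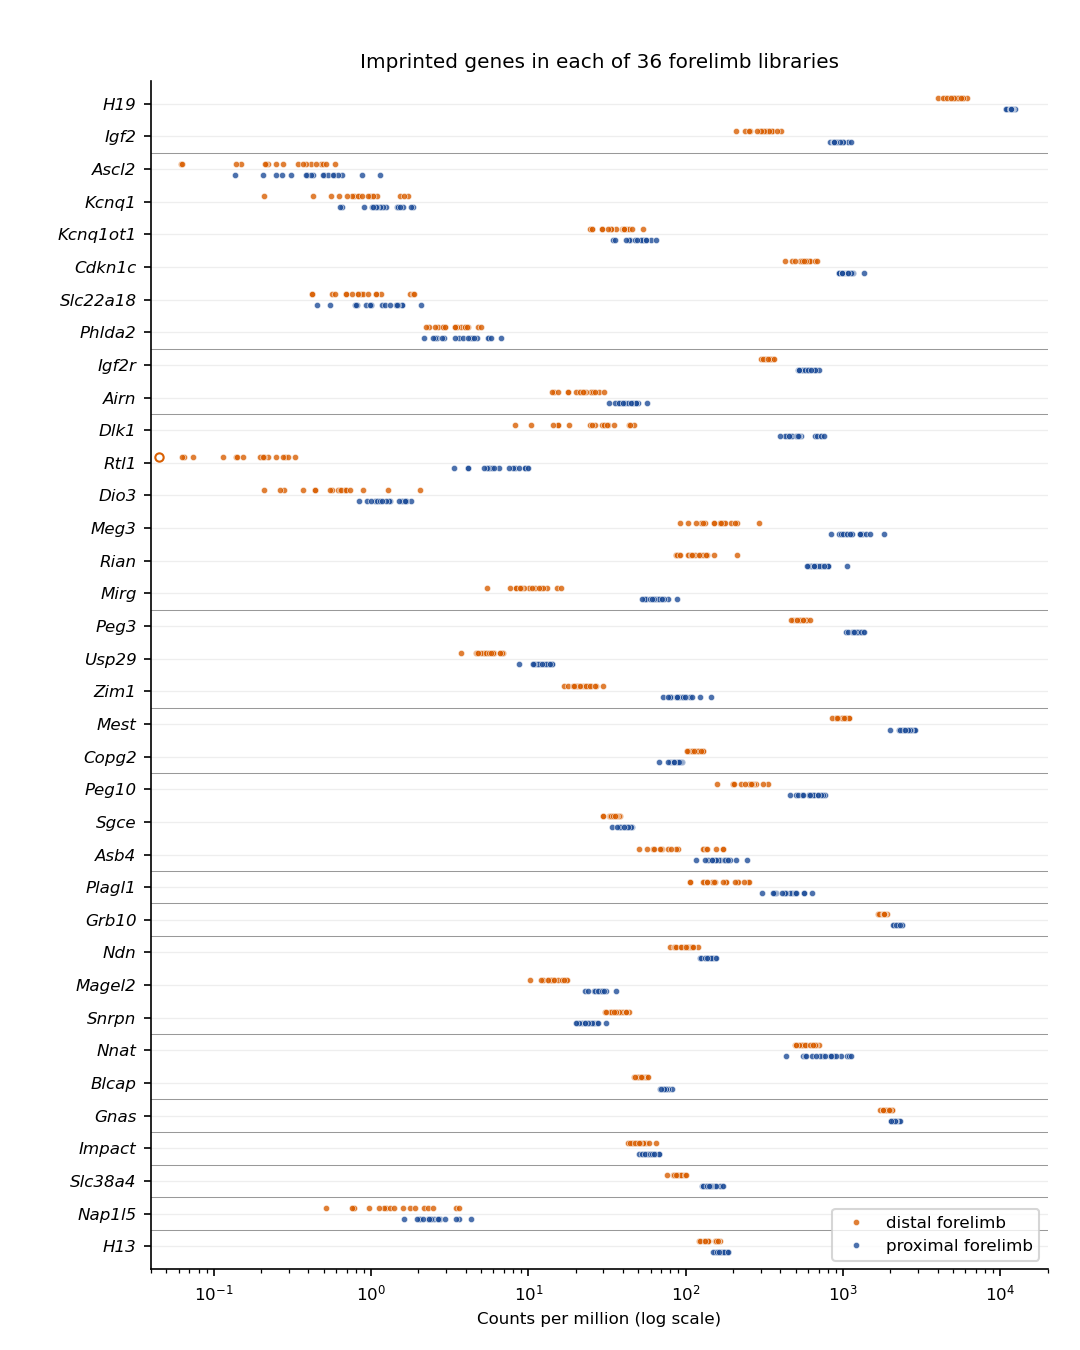
Level of each of the 36 imprinted genes in every library, in CPM on a log axis, with distal and proximal libraries in separate colours. Dlk1, Rtl1, Meg3, Rian and Mirg show the widest gaps between the tissues; the open circle marks the 1 distal library in which Rtl1 had no read.

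In WT forelimbs, 26 of the 35 imprinted genes tested differed between distal and proximal tissue: 24 were lower distally and 2 were higher. Over all genes tested 30.7% passed (17.1% lower and 13.6% higher), and a gene passed where edgeR's quasi-likelihood test gave an adjusted p under 0.05 over all genes. The median difference, distal less proximal, was −0.84 on the log2 scale over the 35 imprinted genes and 0.005 over all genes. By libraries alone, 29 of the 35 had all 3 distal values under all 3 proximal values, against 23.5% of all genes, and 2 had them all above, against 22% of all genes. Those called lower included the growth factor Igf2, the H19 RNA, Dlk1 and the RNAs of the Dlk1-Dio3 locus, zinc finger proteins of the Peg3 locus, and Mest. The remaining gene, Ascl2, a transcription factor of placental lineages, averaged 5.64 reads a library and did not pass edgeR's count filter in any comparison with all libraries. It entered the fit over 6 genotypes when single libraries were left out, and was then called lower distally in 32 fits (log2 −0.69 to −0.53, adjusted p = 0.0111 to 0.0396, edgeR), and by limma on log2(FPKM + 0.1) without a filter (adjusted p = 0.0055). In whole tissue, fewer cells of a type and less RNA per cell cannot be told apart.

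**Figure D2:**
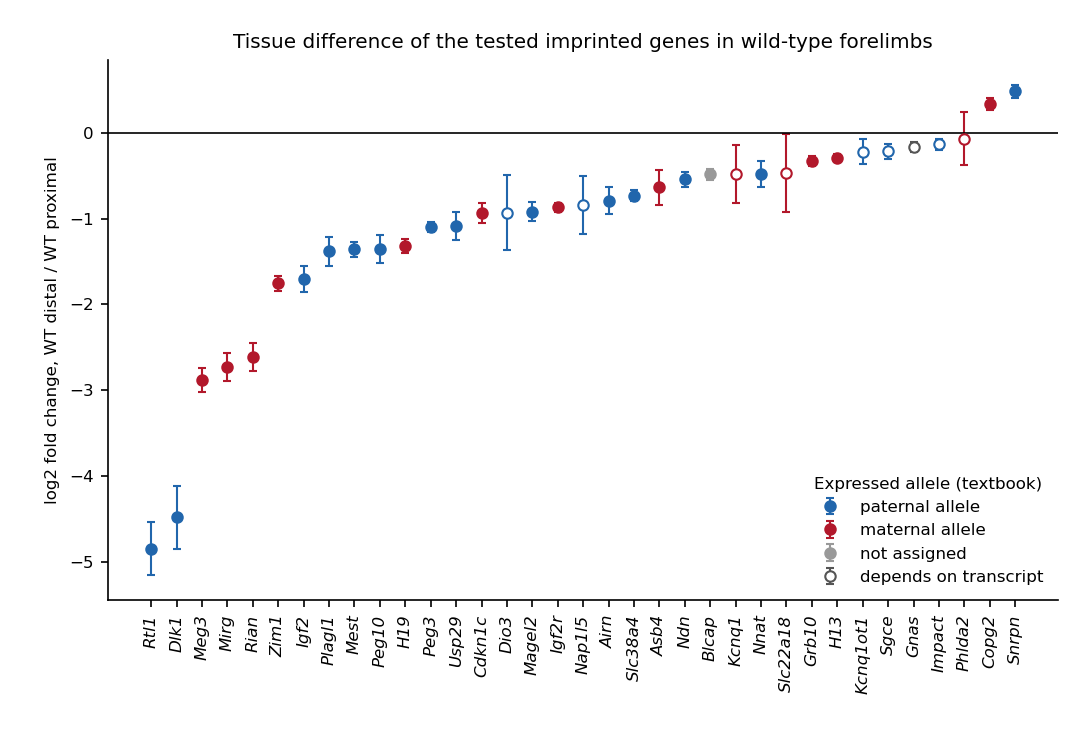
Difference between WT distal and WT proximal forelimb for each of the 35 imprinted genes tested, as the log2 fold change (distal less proximal) with bars of 1 SE, 3 libraries a tissue; filled points passed the test and open points did not. Points under 0 are lower distally, and colours give the textbook parent of origin. Rtl1 and Dlk1 lie lowest, at −4.84 and −4.48, and Copg2 and Snrpn, at 0.33 and 0.48, are the 2 called above 0.

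The largest differences lay in the Dlk1-Dio3 locus on chromosome 12, where 5 of the 6 genes were lower distally with a median log2 difference of −2.80. From Dlk1 (mm10, chr12:109452849-109463336, plus strand) the locus runs through Meg3 (chr12:109541001-109571726), Rtl1 (chr12:109589193-109600330, minus strand), Rian (chr12:109603808-109661716) and Mirg (chr12:109729764-109749460) to Dio3 (chr12:110279068-110281097). Dlk1, a paternally expressed membrane protein of the Notch ligand family that holds progenitor cells undifferentiated, read 32.04, 8.19 and 24.5 CPM in the 3 WT distal libraries and 542, 438 and 464 in the 3 proximal ones. The log2 difference was −4.48 ± 0.37 (SE; adjusted p = 4.22e-05), a 22.3-fold lower level. Distal library 2 held the lowest Dlk1 value, under the other two, and no distal value came near a proximal one.

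Rtl1, a paternally expressed gene derived from a retrotransposon and needed in placenta and fetal muscle, gave 3, 2 and 4 reads in the WT distal libraries and 72, 105 and 83 in the proximal ones. That is 0.205, 0.139 and 0.249 against 5.62, 6.55 and 5.65 CPM. Summed over the 3 libraries, 9 against 260 reads gave a library-size-adjusted ratio of 29.9 with an exact 95% interval of 15.5 to 66.2, which covers counting error only, and the fitted log2 difference was −4.84 ± 0.31 (SE; adjusted p = 1.05e-05). So few distal reads leave the size of the ratio loose. The groups did not overlap.

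The maternally expressed RNAs that follow along the same locus were all lower distally. Meg3, the first of these RNAs, read 175, 151 and 125 CPM in distal and 1277, 1042 and 987 in proximal libraries, a log2 difference of −2.87 ± 0.14 (SE; adjusted p = 2.12e-06). Rian, which carries small nucleolar RNAs as well as microRNAs, read 134, 115 and 87.3 against 798, 626 and 622 CPM (−2.61 ± 0.16 SE, adjusted p = 7.98e-06). Mirg, the microRNA host whose products are shown above, read 11.00, 8.96 and 8.35 against 76.7, 56.1 and 54.5 CPM (−2.73 ± 0.16 SE, adjusted p = 6.43e-06). All 3 differences lay within −2.87 to −2.61, and in each RNA the tissues did not overlap. Dio3, a deiodinase that inactivates thyroid hormone, had few reads, 0.278 to 0.888 CPM distally and 0.937 to 1.31 proximally, and did not pass (−0.93 ± 0.43 SE, adjusted p = 0.144).

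Of the genes that set growth factor signalling, the ligand, its receptor and the RNAs beside them were all lower distally. H19 (mm10, chr7:142575529-142578143), the maternally expressed RNA next to Igf2 (chr7:142650766-142666816), read 4975, 4027 and 4446 CPM in distal and 10878, 10968 and 11625 in proximal libraries, with a log2 difference of −1.32 ± 0.08 (SE; adjusted p = 7.61e-06). Its values did not overlap between tissues. Igf2, the paternally expressed growth factor, ranged over 209 to 333 CPM distally and 833 to 983 proximally (−1.71 ± 0.15 SE, adjusted p = 6.67e-05). Counts understate Igf2: set against its FPKM values they amount to reads over 0.541 kb of its 5723 exon bases, 64.5% of which are shared with other gene models. The FPKM values, 599 and 1712 on average over all distal and all proximal libraries, show the same order. Igf2r, the maternally expressed receptor that carries IGF2 to the lysosome, read 319.95, 338 and 315 against 570.2, 593 and 609 CPM (−0.87 ± 0.05 SE, adjusted p = 8.24e-06). The receptor's tissues did not overlap. Airn, the paternal antisense RNA of Igf2r, differed by −0.79 ± 0.16 (SE; adjusted p = 0.00639). Grb10, an adaptor that dampens insulin and IGF receptor signals, differed by −0.33 ± 0.06 (SE; adjusted p = 0.00365). Of H19, Igf2, Igf2r, Airn and Grb10, the difference was smallest in Grb10. Plagl1, a zinc finger protein that activates other imprinted genes, differed by −1.38 ± 0.17 (SE; adjusted p = 4.40e-04), and Cdkn1c, the cell cycle inhibitor p57, by −0.94 ± 0.12 (SE; adjusted p = 5.38e-04).

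At the Peg3 locus near the start of chromosome 7 all 3 genes were lower distally. Peg3, a paternally expressed zinc finger protein, read 579, 549.8 and 579.5 CPM in distal and 1137, 1222 and 1292 in proximal libraries (−1.10 ± 0.06 SE, adjusted p = 3.93e-06). Zim1, its maternally expressed neighbour and also a zinc finger protein, read 26.99, 24.9 and 22.2 against 89.5, 79.3 and 80.5 CPM (−1.75 ± 0.09 SE, adjusted p = 2.86e-06). Neither overlapped between tissues. Usp29, which shares a start region with Peg3 and runs the other way, differed by −1.09 ± 0.16 (SE; adjusted p = 0.00108).

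Mest, a paternally expressed protein of mesoderm, read 1052, 912 and 992 CPM in distal and 2604, 2261 and 2712 in proximal libraries (−1.36 ± 0.08 SE, adjusted p = 7.43e-06), without overlap. Copg2, a coat protein of transport vesicles that lies end to end with Mest on the other strand, went the other way, with 103 to 122 CPM distally and 86.9 to 94.3 proximally (0.33 ± 0.07 SE, adjusted p = 0.00755). The genes share 912 exon bases at their ends, and the strand setting of counting is not given in the sources used here; Mest reads could be counted for Copg2 and the reverse. Snrpn, a spliceosome protein of the Prader-Willi region, was the other gene that was higher distally (0.48 ± 0.08 SE, adjusted p = 0.00198), while its neighbours Ndn and Magel2, of the MAGE family, were lower (−0.55 ± 0.09 with adjusted p = 0.00167, and −0.92 ± 0.11 with adjusted p = 4.42e-04). Copg2 and Snrpn are named because they were the only 2 called higher, a choice made after their values were seen. Snrpn shares 34.1% of its exon bases with other gene models, among them Snurf, which is read from the same transcript.

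Peg10, a retrotransposon-derived gene needed for the placenta, differed by −1.35 ± 0.16 (SE; adjusted p = 4.01e-04), and its neighbour Asb4, an adaptor of ubiquitin ligases, by −0.64 ± 0.21 (SE; adjusted p = 0.0451). The remaining genes called lower were Slc38a4, an amino acid transporter (−0.73 ± 0.07), Blcap (−0.49 ± 0.07), the membrane proteolipid Nnat (−0.48 ± 0.15, adjusted p = 0.0448) and the signal peptide peptidase H13 (−0.29 ± 0.05). Nnat and Asb4 lay close to the threshold and lost it when single WT libraries were left out (Nnat without distal library 1 or 2 or proximal library 1 or 3, Asb4 without any 1 of the 3 proximal libraries). Not called were Sgce, a sarcoglycan (−0.22 ± 0.08 SE, adjusted p = 0.0838), Gnas (−0.17 ± 0.06 SE, adjusted p = 0.058), Impact, a regulator of translation (−0.13 ± 0.06 SE, adjusted p = 0.159), Nap1l5 (−0.84 ± 0.33 SE, adjusted p = 0.0924), Dio3, and 4 genes of the Kcnq1ot1 domain. With the embryo as a block, which uses the pairing of the 2 tissues of 1 animal, 28 of 35 passed, adding Gnas (adjusted p = 0.0093) and Nap1l5 (adjusted p = 0.0347), both lower distally. The share of all genes that passed in the blocked fit is not set beside this count.

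In the Kcnq1ot1 domain 1 of the 5 genes tested passed, the cell cycle inhibitor Cdkn1c described above. Kcnq1ot1, the paternal RNA that silences the domain in cis, ranged over 39.5 to 53.9 CPM in WT distal and 44.04 to 60.5 in WT proximal libraries (−0.22 ± 0.15 SE, adjusted p = 0.297). Its host gene Kcnq1, a potassium channel, differed by −0.48 ± 0.33 (SE; adjusted p = 0.322), the transporter Slc22a18 by −0.47 ± 0.46 (SE; adjusted p = 0.491), and Phlda2, which restrains placental growth, by −0.07 ± 0.31 (SE; adjusted p = 0.895). Kcnq1, Slc22a18 and Phlda2 averaged 15.1, 14.9 and 52.9 reads a library. Kcnq1 and Kcnq1ot1 overlap on opposite strands.

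By textbook parent of origin, 10 of 14 maternally expressed genes were lower and 1 higher (median log2 −0.75), and 13 of 19 paternally expressed genes were lower and 1 higher (median −0.92). By kind of RNA, 5 of 6 non-coding RNAs were lower with a median of −1.96, and 19 of 29 protein-coding genes were lower and 2 higher with a median of −0.73. These are descriptions of unequal, linked groups, and the difference between them was not tested. The non-coding group draws 3 of its 6 genes from the Dlk1-Dio3 locus.

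Marker genes of several cell types moved with the same contrast. All 19 skeletal muscle markers tested of the 20 listed were lower in WT distal tissue (median log2 −6.01), with a summed level of 48.6 to 48.9 CPM distally and 2556 to 2969 CPM proximally, and over all genotypes Myf6 was at 0 in 12 of 18 distal libraries, Pax7 in 4 and Myh8 in 3. Tendon and connective tissue markers were lower in 8 of 9 (775 to 895 against 3686 to 4067 CPM), cartilage markers in 8 of 12 with 2 higher (2298 to 2666 against 4252 to 4622 CPM), nerve markers in 6 of 9, endothelial markers in 9 of 10 and macrophage markers in none of 10. All 10 proliferation markers were higher distally (3527 to 3791 against 2463 to 2732 CPM). The part of these cell types in the differences of the imprinted genes was not tested.

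Every embryo, whatever its genotype, gave both tissues, so the direction could be read within each. In all 18 embryos 26 of the 36 genes were lower distally, Copg2 and Snrpn were higher in all 18, and 8 were mixed. The mixed genes were lower distally in 12 (Ascl2 and Phlda2) to 17 (Kcnq1ot1) of the 18 embryos. How many of all genes kept 1 direction in all 18 embryos was not counted, so these numbers have no share beside them. Averaged over the 6 genotypes, 33 of 35 passed (31 lower, 2 higher), where 68.6% of all genes did (34.2% lower, 34.4% higher), so a call by itself was common with 18 libraries a tissue. The median log2 difference was −0.85 over the imprinted genes. For 21 of the 35 all 18 distal values lay under all 18 proximal values, and for 1 above, against 7.94% and 5.23% of all genes.

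Dlk1 ran from 8.19 to 47.3 (median 27.98) CPM in the 18 distal and from 401 to 758 (median 517) in the 18 proximal libraries, and its ratio within an embryo from 9.80 to 53.5 (median 20.1). Its log2 difference over genotypes was −4.39 ± 0.14 (SE; adjusted p = 8.22e-23). Of all the distal values of Dlk1 none reached the lowest proximal one. Rtl1 had 0 to 0.329 (median 0.201) CPM distally and 3.38 to 9.93 (median 6.30) proximally (−5.20 ± 0.16 SE, adjusted p = 5.64e-23), and the summed reads, 46 against 1714, gave a ratio of 39.0 (exact 95% interval 29.1 to 53.5, counting error only). The only distal library without an Rtl1 read was of Del(CBS1-4).

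Meg3 ran from 91.5 to 292 (median 166) CPM distally and 841 to 1830.2 (median 1129) proximally (−2.89 ± 0.07 SE, adjusted p = 2.98e-25), with embryo ratios of 5.26 to 11.6 (median 7.27). Rian ran from 86.5 to 211 (median 112) CPM distally and 592 to 1067 (median 714) proximally (−2.63 ± 0.07 SE, adjusted p = 6.72e-25). Mirg ran from 5.46 to 16.1 (median 9.73) CPM distally and 52.4 to 87.5 (median 63.7) proximally (−2.65 ± 0.07 SE, adjusted p = 5.48e-24). For all 3 RNAs the tissues stayed apart in every genotype, and the median embryo ratios of Rian and Mirg were 6.21 and 6.47.

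H19 ran from 4027 to 6113 (median 5050.1) CPM in distal and 10864 to 12336 (median 11730.2) in proximal libraries (−1.20 ± 0.03 SE, adjusted p = 4.10e-25), with embryo ratios of 2.02 to 2.72. Mest ran from 852 to 1098 (median 994) CPM distally and 1987 to 2889.98 (median 2608) proximally (−1.38 ± 0.03 SE, adjusted p = 2.98e-25), with embryo ratios of 2.14 to 2.93. Both ratios spanned a narrower range over embryos than that of Dlk1. Peg3 ran from 467 to 621 (median 549.8) CPM distally and 1044 to 1359 (median 1225) proximally (−1.17 ± 0.03 SE, adjusted p = 1.94e-24). Zim1 ran from 16.8 to 29.7 (median 21.7) CPM distally and 71.6 to 144 (median 90.1) proximally (−2.09 ± 0.06 SE, adjusted p = 1.07e-23), and Igf2r from 299.8 to 366 (median 330.1) CPM distally and 518 to 708 (median 596) proximally (−0.85 ± 0.02 SE, adjusted p = 1.21e-23). None of these 5 genes overlapped between the tissues.

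Igf2 had a median embryo ratio of 2.90 and a log2 difference of −1.59 ± 0.05 (SE; adjusted p = 2.50e-22). Genes not called in WT but called over the 6 genotypes were Dio3, Nap1l5, Gnas (−0.14 ± 0.02), Sgce (−0.25 ± 0.03), Impact (−0.23 ± 0.03) and Kcnq1ot1 (−0.47 ± 0.06), which was lower distally in 17 of 18 embryos. Kcnq1 also passed, narrowly (−0.45 ± 0.17 SE, adjusted p = 0.0234) and lost the call without proximal library 2 of Del(CBS1-5). Slc22a18 and Phlda2 did not pass, and each was lower distally in only some embryos, 13 and 12 of 18. Copg2 (0.40 ± 0.03) and Snrpn (0.59 ± 0.04) were higher.

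Other genes of the same pathways were read from lists, which were chosen with earlier results of these data known. Of 20 tested genes of imprint machinery, the enzymes and proteins that write, keep or read imprints, 11 were higher in WT distal tissue, against 13.6% of all genes, and none was lower (median log2 0.21). They were led by Uhrf1, which guides maintenance methylation (0.54 ± 0.07), Trim28, the corepressor that guards imprints (0.39 ± 0.06), Ctcf itself (0.36 ± 0.05) and the heterochromatin protein Cbx3 (0.49 ± 0.09). Uhrf1 and others of this list also follow cell division, and all 10 proliferation markers were higher in the same libraries; their part was not tested. Of 23 tested genes of the IGF axis, ligands, receptors, binding proteins and their partners, 12 were lower distally, against 17.1% of all genes, and 1 was higher (median −0.42). The named ones were the binding proteins Igfbp5 (−1.78 ± 0.08), Igfbp3 (−1.78 ± 0.09) and Igfbp4 (−1.14 ± 0.09) and the growth factor Igf1 (−3.84 ± 0.19). Of 32 tested further imprinted genes outside the 36, 11 were lower and 3 higher (median −0.10), led by Osbpl5 (−0.78 ± 0.06), Begain (−1.03 ± 0.11), Ddc (−2.16 ± 0.25) and Pde10a (1.22 ± 0.15), the last being higher distally. Lower calls were thus made in 24 of 35 of the genes followed here and in 11 of 32 of the other imprinted genes, against 17.1% of all genes.

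Most imprinted genes were not called in the alleles. Against WT, 3 calls were made among all comparisons of 5 alleles in 2 tissues, all in Del(CBS1-2). The comparisons within a tissue share the same 3 WT libraries and are not independent of each other. In distal forelimb Del(CBS1-2), 2 of 34 genes passed (Rtl1 had too few distal reads to be tested), where 10.5% of all genes did, and in proximal forelimb 1 of 35 passed, where 0.721% did. At an unadjusted p under 0.05 there were 12 distal and 9 proximal genes, against 26.6% and 19.5% of all genes. The calls depended on the filter for low counts: without it edgeR called 12 imprinted genes in distal Del(CBS1-2) (7.06% of all genes) and 9 in proximal Del(CBS1-2) (4.37%). Those shares are over 30484 and 31247 genes, which include genes that the filter removes. The imprinted genes gained had themselves passed the filter. Distal H19 had an SE of 0.046 without the filter and 0.083 by DESeq2 with it. Distal Plagl1 had 0.058, against 0.188 by edgeR with the filter and without WT library 2. No allele effect is read from the calls gained.

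Kcnq1ot1 (mm10, chr7:143203458-143296549, minus strand), the silencing RNA of the Kcnq1 domain, read 39.5, 53.9 and 41.8 CPM in WT distal libraries and 25.4, 29.5 and 33.3 in those of Del(CBS1-2). All 3 mutant values lay under all 3 WT values, and the log2 difference, mutant less WT, was −0.64 ± 0.16 (SE; adjusted p = 0.0192). Without WT library 2, the highest, the adjusted p was 0.0873, and the call was also lost without mutant library 1 or 2. H13 (chr2:152669461-152708670), a signal peptide peptidase and one of the genes on the same chromosome as Hoxd, read 136, 138 and 135 CPM in WT and 166, 161 and 154 in Del(CBS1-2), a 1.15-fold higher level (0.21 ± 0.05 SE, adjusted p = 0.0193). Its groups did not overlap either, and its call was lost without mutant library 1 or 2.

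Phlda2 (mm10, chr7:143501545-143502993), a maternally expressed restraint on placental growth in the same domain as Kcnq1ot1, read 2.89, 3.62 and 2.18 CPM in WT proximal libraries and 5.66, 5.54 and 6.73 in those of Del(CBS1-2). The mutant libraries were all above the WT ones, at a 2.06-fold level (1.04 ± 0.23 SE, adjusted p = 0.0391). The call was lost without WT library 1 or 3 or any 1 mutant library, with adjusted p of 0.102 to 0.146. In distal tissue Phlda2 read 2.32, 2.22 and 3.74 CPM in WT and 3.94, 4.06 and 4.77 in Del(CBS1-2), again without overlap, and did not pass (0.60 ± 0.24 SE, adjusted p = 0.113). Kcnq1ot1 in proximal Del(CBS1-2) read 47.7, 43.7 and 52.4 CPM against 60.5, 44.04 and 52.97 in WT (−0.13 ± 0.11 SE, adjusted p = 0.553), with overlap.

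Other features differed between Del(CBS1-2) and WT too. Summed muscle markers were 95.5 to 184 CPM in distal Del(CBS1-2) against 48.6 to 48.9 in WT (2 of 19 called higher), and 3487 to 3780 against 2556 to 2969 in proximal tissue (0 of 20 called by edgeR). Cartilage markers were 3280 to 3435 against 2298 to 2666 CPM distally and 5607 to 5766 against 4252 to 4622 proximally. A muscle score, the mean log2 CPM of the same markers, was 1.39 to 2.14 in distal Del(CBS1-2) and 0.35 to 0.59 in WT, and 6.22 to 6.26 against 5.89 to 5.99 proximally, without overlap in either tissue. With this score as a covariate the differences were −0.65 ± 0.19 (SE; adjusted p = 0.0899) for Kcnq1ot1, 0.14 ± 0.06 (SE; adjusted p = 0.206) for H13 and 0.72 ± 0.25 (SE; adjusted p = 0.597) for proximal Phlda2, all in the same direction and none past the threshold. Since the score and the genotype separate the same libraries, their parts cannot be told apart here. All 3 embryos of Del(CBS1-2) were female by their RNA, as were 2 of 3 WT embryos, and the part of sex was not tested.

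In the other alleles edgeR, with its count filter, called 0 imprinted genes in either tissue. For Del(CBS1) and the 3 longest deletions, in that order, 0.0325%, 0.00651%, 0.0846% and 0.0651% of all genes were called in distal and 0.0443%, 0.0696%, 0% and 0.0696% in proximal tissue. At an unadjusted p under 0.05 there were 2, 9, 8 and 8 imprinted genes in distal tissue, against 9.69%, 13.9%, 15.3% and 13.1% of all genes, and 1, 7, 13 and 1 in proximal tissue, against 7.1%, 13.1%, 14.1% and 6.48%. Without the count filter the same test called 3, 8, 7 and 9 distal genes, where 1.18%, 1.81%, 3.52% and 2.08% of all genes were called, and 1, 5, 8 and 2 proximal genes, where 0.8%, 1.48%, 2.82% and 1.16% were. The number of calls thus depended on the filter. Asb4 in distal Del(CBS1-4) had an SE of 0.067 without it, against 0.304 with it and without WT library 2. DESeq2 called 0, 1, 1 and 1 in distal and 0, 1, 0 and 0 in proximal tissue, and its shares of all genes are not set beside these counts. Its distal calls were H19 in Del(CBS1-3) (DESeq2 adjusted p = 0.0146), H13 in Del(CBS1-4) (0.0275) and Kcnq1ot1 in Del(CBS1-5) (0.0298). The gene that DESeq2 called in proximal Del(CBS1-3) was Kcnq1ot1, named after its values were seen: it read 41.7, 34.5 and 35.4 CPM against 60.5, 44.04 and 52.97 in WT, with no overlap, and edgeR gave −0.50 ± 0.11 (SE; adjusted p = 0.0764).

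**Figure D3:**
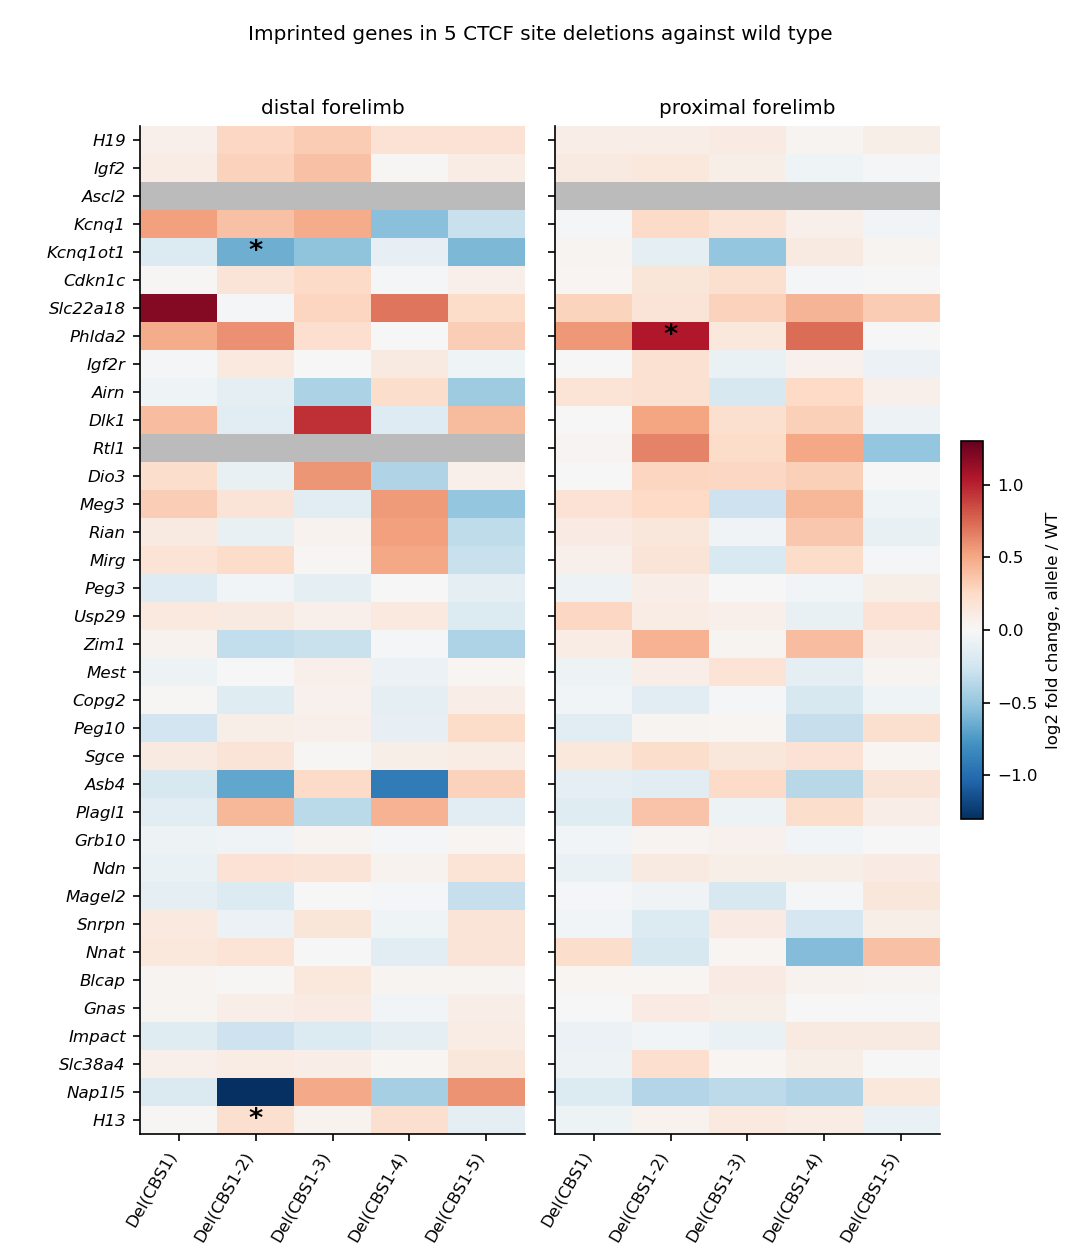
Log2 fold change of each imprinted gene in the 5 alleles against WT, in distal and in proximal forelimb, as a colour from lower (blue) to higher (red) in the mutant; grey cells were not tested and stars mark adjusted p under 0.05. The 3 stars, Kcnq1ot1 and H13 in distal and Phlda2 in proximal Del(CBS1-2), are the only calls.

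Asked whether the 6 genotypes differed at all, the test called more genes than any comparison with WT: 13 of 34 in distal and 9 of 35 in proximal forelimb, against 19.7% and 15.1% of all genes. Without the count filter 21 and 19 were called, against 14.7% and 13.6%, in the fits whose smaller SEs are given above. The distal count depended on single libraries: it was 4 without library 2 of Del(CBS1-2), 5 without library 1 of Del(CBS1-4) or library 1 or 2 of Del(CBS1-5), 7 without library 3 of Del(CBS1-2), 1 of Del(CBS1-3) or 3 of Del(CBS1-4), and 8 without library 3 of Del(CBS1) or 1 of Del(CBS1-2). The proximal count stayed between 6 and 12. The values below are CPM of the 3 libraries of each genotype.

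Distal Meg3 read 175, 151 and 125 in WT, 172, 213 and 178 in Del(CBS1), 195, 166 and 152 in Del(CBS1-2), 132, 166 and 117 in Del(CBS1-3), 206, 168 and 292 in Del(CBS1-4), and 103, 91.5 and 129 in Del(CBS1-5) (adjusted p = 0.0084). Proximal Meg3 read 1277, 1042 and 987 in WT, 1317, 1120.2 and 1325 in Del(CBS1), 1396, 1281 and 1280.3 in Del(CBS1-2), 937, 971 and 841 in Del(CBS1-3), 1489, 1139 and 1830.2 in Del(CBS1-4), and 1008, 1059 and 1116 in Del(CBS1-5) (adjusted p = 0.0125). The distal values were lowest in Del(CBS1-5), and 2 of its 3 libraries lay under every WT library, while the highest single library in each tissue was number 3 of Del(CBS1-4), from the same embryo. Distal Rian read 134, 115 and 87.3 in WT, 123, 136 and 104 in Del(CBS1), 129.5, 104 and 86.5 in Del(CBS1-2), 108, 134 and 109 in Del(CBS1-3), 152, 122 and 211 in Del(CBS1-4), and 90.98, 87.8 and 91.8 in Del(CBS1-5) (adjusted p = 0.031). As for Meg3, library 3 of Del(CBS1-4) was the highest.

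Kcnq1ot1 in distal tissue read 39.5, 53.9 and 41.8 in WT, 36.02, 43.9 and 40.01 in Del(CBS1), 25.4, 29.5 and 33.3 in Del(CBS1-2), 33.4, 29.4 and 31.9 in Del(CBS1-3), 40.3, 45.5 and 40.4 in Del(CBS1-4), and 24.7, 25.4 and 40.8 in Del(CBS1-5) (adjusted p = 0.0209). In proximal tissue it read 60.5, 44.04 and 52.97 in WT, 54.01, 52.4 and 54.5 in Del(CBS1), 47.7, 43.7 and 52.4 in Del(CBS1-2), 41.7, 34.5 and 35.4 in Del(CBS1-3), 53.4, 51.99 and 64.9 in Del(CBS1-4), and 55.8, 49.1 and 56.1 in Del(CBS1-5) (adjusted p = 0.0133). The distal libraries of Del(CBS1-2) and Del(CBS1-3) all lay under the lowest WT library, and proximally those of Del(CBS1-3) did. H13 in distal tissue read 136, 138 and 135 in WT, 139, 138 and 139 in Del(CBS1), 166, 161 and 154 in Del(CBS1-2), 131, 156 and 139 in Del(CBS1-3), 157, 156 and 159 in Del(CBS1-4), and 122, 124 and 133 in Del(CBS1-5) (adjusted p = 0.00367). In proximal tissue H13 read 163, 168 and 169 in WT, 163, 154 and 160.4 in Del(CBS1), 178, 172 and 167 in Del(CBS1-2), 174, 187 and 184 in Del(CBS1-3), 174, 176 and 185 in Del(CBS1-4), and 150.3, 158 and 162 in Del(CBS1-5) (adjusted p = 0.0164). Its distal values were highest in Del(CBS1-2) and Del(CBS1-4) and lowest in Del(CBS1-5), and WT and Del(CBS1) replicates lay close together.

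Asb4 in distal tissue read 131, 70.3 and 129 in WT, 62.05, 134 and 89.9 in Del(CBS1), 70.1, 62.7 and 77.4 in Del(CBS1-2), 136, 87.03 and 172 in Del(CBS1-3), 50.3, 68.7 and 56.7 in Del(CBS1-4), and 173, 156 and 80.3 in Del(CBS1-5) (adjusted p = 0.031). In proximal tissue Asb4 read 164, 154 and 192 in WT, 164, 153 and 156 in Del(CBS1), 175, 146 and 139 in Del(CBS1-2), 180.4, 182 and 246 in Del(CBS1-3), 117, 148 and 133 in Del(CBS1-4), and 209, 178 and 186 in Del(CBS1-5) (adjusted p = 0.0152). Del(CBS1-4) was at the low end in both tissues, and within WT, Del(CBS1), Del(CBS1-3) and Del(CBS1-5) the distal libraries were widely spread. Proximal Nnat read 747, 635 and 975 in WT, 829, 1054 and 878 in Del(CBS1), 556, 715 and 774 in Del(CBS1-2), 834, 676 and 898 in Del(CBS1-3), 573, 585 and 435 in Del(CBS1-4), and 1089.95, 1132 and 840.2 in Del(CBS1-5) (adjusted p = 0.0112). Nnat was lowest in Del(CBS1-4), whose 3 libraries all lay under those of WT. In distal tissue Nnat ranged from 497 to 706 (median 581) (adjusted p = 0.0471).

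Plagl1 in distal tissue read 129.9, 211 and 147 in WT, 181, 106 and 154 in Del(CBS1), 215, 247 and 205 in Del(CBS1-2), 106, 152 and 129 in Del(CBS1-3), 251, 179 and 236 in Del(CBS1-4), and 136, 136 and 173 in Del(CBS1-5) (adjusted p = 0.0202). The levels were high in Del(CBS1-2) and Del(CBS1-4), and WT library 2 reached the same range. Distal Igf2r read 319.95, 338 and 315 in WT, 322, 319.7 and 321 in Del(CBS1), 360.2, 361 and 355 in Del(CBS1-2), 318, 334 and 329 in Del(CBS1-3), 346, 342 and 366 in Del(CBS1-4), and 299.8, 311 and 332 in Del(CBS1-5) (adjusted p = 0.0209), with narrow groups and all 3 Del(CBS1-2) libraries above WT. Distal Zim1 read 26.99, 24.9 and 22.2 in WT, 22.96, 29.7 and 23.96 in Del(CBS1), 23.2, 20.3 and 16.8 in Del(CBS1-2), 20.97, 20.3 and 19.7 in Del(CBS1-3), 24.7, 21.3 and 26.6 in Del(CBS1-4), and 17.8, 19.2 and 19.6 in Del(CBS1-5) (adjusted p = 0.0311). Every library of Del(CBS1-3) and Del(CBS1-5) lay under the lowest WT value of Zim1.

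Impact in distal tissue read 55.9, 54.1 and 50.9 in WT, 45.4, 50.9 and 48.2 in Del(CBS1), 46.9, 45.9 and 43.1 in Del(CBS1-2), 45.8, 44.05 and 53.4 in Del(CBS1-3), 48.98, 47.3 and 50.99 in Del(CBS1-4), and 58.3, 65.01 and 50.3 in Del(CBS1-5) (adjusted p = 0.0357). Nap1l5 in distal tissue read 1.78, 0.972 and 2.18 in WT, 0.768, 1.91 and 1.61 in Del(CBS1), 0.775, 0.515 and 0.753 in Del(CBS1-2), 2.30, 1.23 and 3.47 in Del(CBS1-3), 1.21, 1.12 and 1.32 in Del(CBS1-4), and 3.63, 2.49 and 1.39 in Del(CBS1-5) (adjusted p = 0.0387). All Del(CBS1-2) libraries lay under WT for both genes, and Nap1l5 was close to the lower limit of what could be tested. The other 3 distal calls were Airn (adjusted p = 0.0474), Copg2 (adjusted p = 0.0401) and Nnat.

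Rtl1 in proximal tissue read 5.62, 6.55 and 5.65 in WT, 8.21, 4.14 and 5.85 in Del(CBS1), 9.80, 9.52 and 8.71 in Del(CBS1-2), 5.46, 9.52 and 6.05 in Del(CBS1-3), 7.94, 7.53 and 9.93 in Del(CBS1-4), and 4.10, 3.38 and 5.22 in Del(CBS1-5) (adjusted p = 0.0251). Del(CBS1-2) lay above WT in all 3 libraries and Del(CBS1-5) below WT in all 3. Phlda2 in proximal tissue read 2.89, 3.62 and 2.18 in WT, 4.73, 4.28 and 3.84 in Del(CBS1), 5.66, 5.54 and 6.73 in Del(CBS1-2), 2.61, 4.40 and 2.56 in Del(CBS1-3), 4.12, 4.52 and 5.77 in Del(CBS1-4), and 2.83, 2.48 and 3.42 in Del(CBS1-5) (adjusted p = 0.016). Peg10 in proximal tissue read 606, 506 and 771 in WT, 559, 549.99 and 609 in Del(CBS1), 632, 643 and 656 in Del(CBS1-2), 609, 613 and 694 in Del(CBS1-3), 462, 517 and 553 in Del(CBS1-4), and 750.4, 725 and 694 in Del(CBS1-5) (adjusted p = 0.0303), with Del(CBS1-4) at the low end and WT spread across most of the range. Airn in proximal tissue read 46.1, 38.99 and 36.9 in WT, 48.2, 40.1 and 49.9 in Del(CBS1), 46.1, 45.8 and 48.3 in Del(CBS1-2), 35.4, 37.9 and 32.3 in Del(CBS1-3), 48.1, 41.02 and 56.7 in Del(CBS1-4), and 42.9, 39.7 and 44.9 in Del(CBS1-5) (adjusted p = 0.0436), with its lowest library in Del(CBS1-3).

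**Figure D4:**
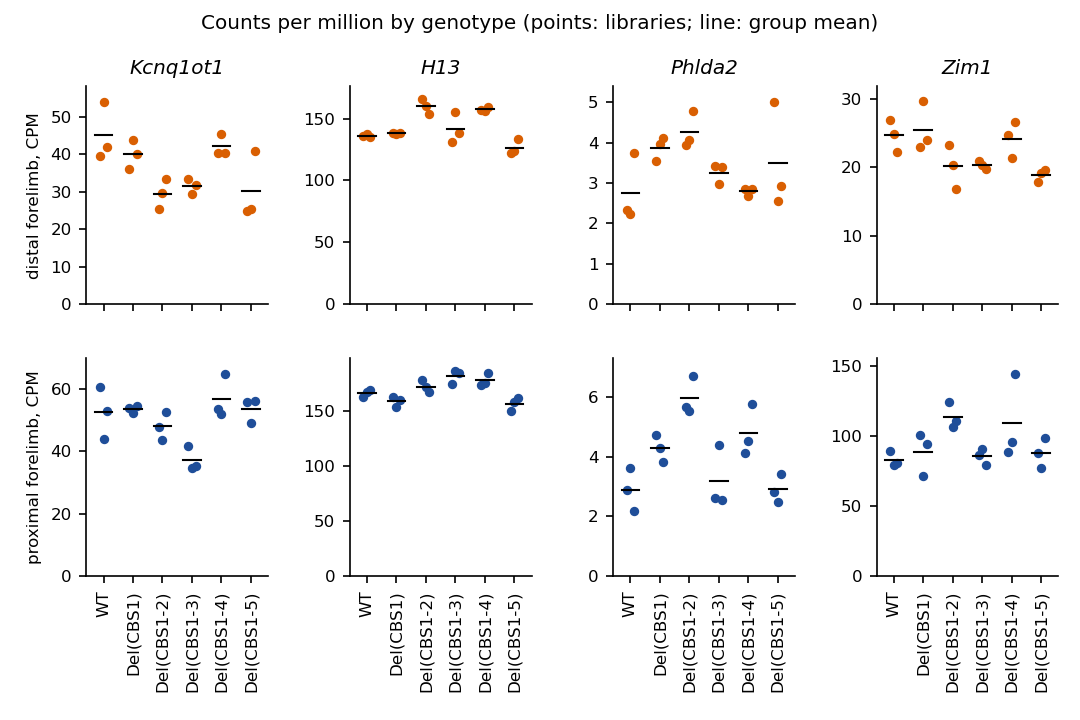
Level of Kcnq1ot1, H13, Phlda2 and Zim1 in each genotype, in CPM on axes that start at 0, distal above and proximal below; points are the 3 libraries of a group and the line is their mean. Kcnq1ot1 sits under WT in distal Del(CBS1-2) (25.4 to 33.3 CPM) and Phlda2 above WT in proximal Del(CBS1-2) (5.54 to 6.73 CPM).

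The muscle marker sum also varied between genotypes, from 25.2 to 184 CPM over the 18 distal and from 2265 to 4090 over the 18 proximal libraries. With the muscle score as a covariate 2 of the 34 distal genes were called in place of 13. In proximal tissue 9 of 35 were called with it, as many as without, and they included Rian (adjusted p = 0.0268) and Plagl1 (adjusted p = 0.0417), which edgeR did not call without the score. The shares of all genes called with the score are not set beside these counts. Whether the distal drop is particular to the imprinted genes is therefore not shown. Summed erythroid markers, at 1775 to 5856 CPM distally, varied among genotypes as well. The part of cell composition in these differences was not tested beyond that.

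Whether an allele changed an imprinted gene by a different amount in the 2 tissues was tested as an interaction. edgeR called 0 of 35 in each of the 5 alleles, where 0%, 0.0491%, 0.00614%, 0.0184% and 0% of all genes were called in order of the deletions. Unadjusted p under 0.05 was reached by 0, 3, 1, 4 and 4 imprinted genes, against 2.12%, 11.1%, 3.94%, 6.11% and 5.93% of all genes. Without the count filter edgeR called 1, 5, 3, 4 and 4, against 0.0873%, 0.946%, 0.334%, 0.819% and 0.283% of all genes, and DESeq2 called 1, Zim1 in Del(CBS1-2), which is described in the closing section. The SE of Zim1 there was 0.12 without the filter and 0.20 by DESeq2. The calls that edgeR with its filter made in 1 tissue of Del(CBS1-2) are therefore not shown to differ from the other tissue.

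Genes of the 3 related lists were called in 3 of the 10 comparisons of an allele with WT. In distal Del(CBS1-2), 5 of 20 genes of imprint machinery were lower and none higher, the 4 with the smallest p being Smchd1 (−0.18 ± 0.04), Tet1 (−0.21 ± 0.05), Arid4b (−0.19 ± 0.05) and Cbx5 (−0.16 ± 0.05). Of 22 genes of the IGF axis 4 were higher and none lower: the kinase Akt1 (0.19 ± 0.04), the binding proteins Igfbp2 (0.43 ± 0.09) and Igfbp4 (0.32 ± 0.07), and the kinase subunit Pik3r1 (0.34 ± 0.10). Of 31 further imprinted genes 3 were higher and 4 lower, led by Ube3a, a ubiquitin ligase (−0.41 ± 0.07), Osbpl5 (0.46 ± 0.10), Dhcr7 (−0.25 ± 0.06) and Cd81 (0.18 ± 0.04), beside the 10.5% of all genes called there. In proximal tissue the only calls from these lists were Pappa2, a protease that frees IGF from its binding proteins, in Del(CBS1-2) (1.17 ± 0.21), and Tet2, an enzyme that oxidises methylated cytosine, in Del(CBS1-3) (−0.39 ± 0.07). The other 7 comparisons of an allele with WT gave no call in any of the 3 lists.

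Genes of a cluster could also vary together between embryos of 1 group. For 11 pairs of neighbours in each tissue, deviations of log2 CPM from the group mean were correlated over 18 libraries, with exact permutation within groups (46656 arrangements, two-sided) and adjustment over the 22 tests. In distal tissue H19 and Igf2 varied together with r = 0.84 and rho = 0.84 (permutation p = 0.000836, adjusted p = 0.00396), and r = 0.73 without the 2 libraries of most extreme H19 (adjusted p = 0.0446). In proximal tissue their r was 0.14 (rho = 0.12, permutation p = 0.575), and the difference between the tissues was not tested. Meg3 and Rian gave r = 0.88 distally (adjusted p = 0.00126) and 0.92 proximally (adjusted p = 0.00126), and Rian and Mirg 0.76 (adjusted p = 0.00126) and 0.90 (adjusted p = 0.00396), each by exact permutation.

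Dlk1 and Meg3, which lie in the same locus and are expressed from opposite copies, gave r = 0.56 distally and 0.67 proximally (exact permutation p = 0.0470 and 0.0142, adjusted p = 0.115 and 0.0521), short of the threshold. Without the 2 libraries of most extreme Dlk1 the distal r was 0.66 (exact permutation, adjusted p = 0.0446), which passed, and the proximal r 0.54 (exact permutation, adjusted p = 0.155). The proximal rho of 0.72 passed as well (exact permutation, adjusted p = 0.0228), and the distal rho of 0.50 did not (exact permutation, adjusted p = 0.203). Igf2r and its antisense Airn gave 0.67 and 0.54 (adjusted p = 0.115 in both, exact permutation). The pairs Peg10 and Sgce, Mest and Copg2, Nnat and Blcap, Ndn and Snrpn, Cdkn1c and Phlda2, and Peg3 and Usp29 did not pass in either tissue. Reads of 2 genes in a library share its size factor and cell makeup, which were not removed.

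**Figure D5:**
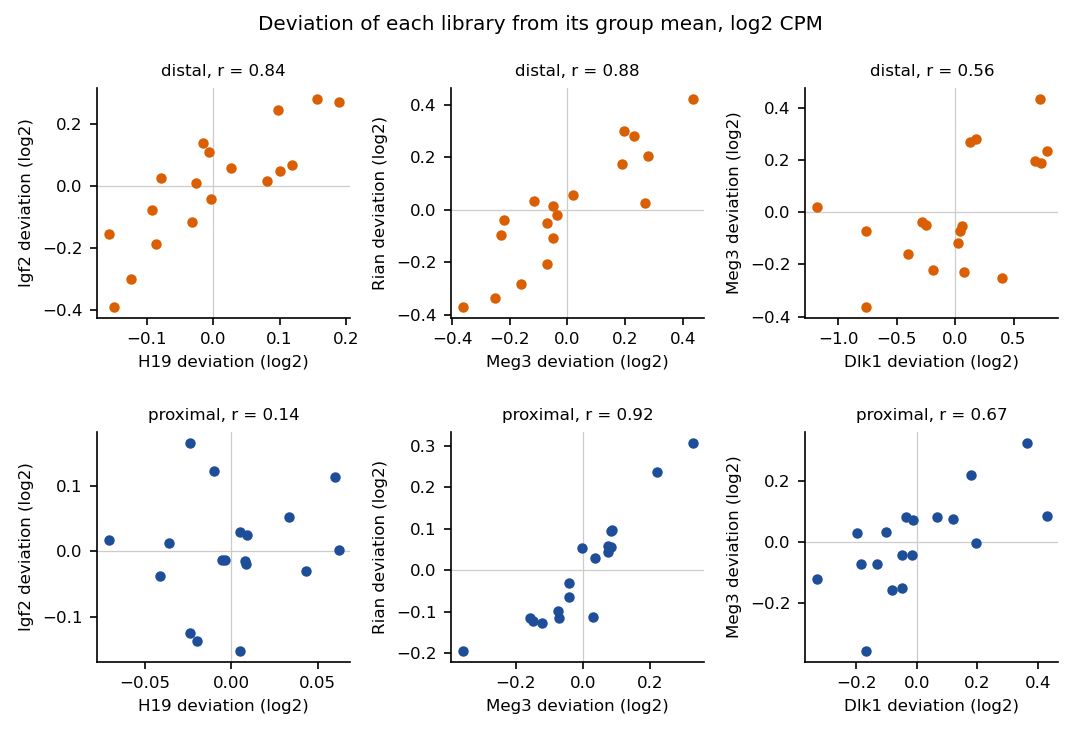
Deviation of log2 CPM from the mean of its own group for H19 with Igf2, Meg3 with Rian and Dlk1 with Meg3, 1 point per library (18 a tissue), distal above and proximal below. Points of H19 and Igf2 follow a line distally (r = 0.84) and scatter proximally (r = 0.14), and those of Meg3 and Rian follow a line in both tissues.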

How the data were processed

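Poly(A) RNA of 36 libraries was analysed from 2 tables. The authors deposited whole-number read counts per Ensembl gene, per the file headers, and a table of FPKM values (fragments per kilobase of gene and per sequenced library size) from Cufflinks. Per the submitters' processing notes, the tools were STAR 2.7.0, cutadapt 1.16, bedtools 2.27.1 and Cufflinks 2.2.1, with build mm10. The strand setting of counting is not given in the sources used here. Libraries were TruSeq stranded and read as single ends of 50 nucleotides, per the labels.

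The 36 genes and the related lists were chosen with earlier results of these data known. Counts were fitted with edgeR 4.0.16 in R 4.3.3 (quasi-likelihood test, TMM, filterByExpr, Benjamini-Hochberg adjustment over all genes, threshold 0.05). SE is that of the log2 fold change. CPM values use TMM factors over all 36 libraries. DESeq2 1.42.0, limma 3.58.1 on log2(FPKM + 0.1) with a filter of 0.5 FPKM in 3 libraries, a pseudocount of 1, no filters, a replicate block, a muscle score (mean log2 CPM of muscle markers) as covariate and leaving out each library were alternatives, and the script was tested on simulated data. Named in full were genes called in a comparison, at most the 10 of smallest p, and at most 4 genes of each related list. Promoter and microRNA sequences are from RefSeq on GRCm38.p6.

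Distal and proximal libraries of the same number and genotype were taken as 1 embryo: their deviations from group means correlated at r = 0.264 to 0.701 over 11586 genes, each of the 18 correlated best with its own partner, and RNA-based sex matched in 18 of 18. Replicate pairs differed beyond counting noise in all 36 cases (chi-square per degree of freedom 2.56 to 19.3). The labels describe individual limb pairs, so p-values of comparisons within a tissue measure variation among embryos. Without the embryo block, the tissue and interaction fits treated the distal and proximal libraries of an embryo as independent. Their p-values therefore do not use the pairing.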

Additional observations from a re-analysis of the deposited data

Results flagged for a closer look

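Zim1, the maternally expressed zinc finger gene beside Peg3, differed between the tissues in its response to Del(CBS1-2) by a test of the difference itself with the embryo as a block: the log2 change in distal less that in proximal tissue was −0.75 ± 0.17 (SE; edgeR, adjusted p = 0.0370). It was chosen after its values were seen. Without the block edgeR gave an adjusted p of 0.141, with 0.0270 from DESeq2, 0.161 with DESeq2's size factors in edgeR, and 0.0964 to 0.353 when single libraries were left out, so the call depends on the fit. Distal libraries read 23.2, 20.3 and 16.8 CPM in Del(CBS1-2) against 27.0, 24.9 and 22.2 in WT, which overlap, and proximal libraries 124, 106.5 and 110.4 against 89.5, 79.3 and 80.5, which do not. The proximal change by itself was 0.45 ± 0.15 (SE; adjusted p = 0.111). Summed muscle markers were also higher in Del(CBS1-2) in both tissues, and their part in the Zim1 difference was not tested.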

How the results depend on the processing

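No direction reversed among the single genes followed over the settings, which are named below. The direction of other genes was not followed, and neither was any direction in the tests among the 6 genotypes. Counts of imprinted genes called are given in order of the deletions, from Del(CBS1) to Del(CBS1-5), and edgeR with its filter gave 0, 2, 0, 0 and 0 in distal tissue, 0, 1, 0, 0 and 0 in proximal tissue and 0 in each interaction. Without the count filter they were 3, 12, 8, 7 and 9 in distal tissue, 1, 9, 5, 8 and 2 in proximal tissue and 1, 5, 3, 4 and 4 as interactions. Among the 6 genotypes 21 distal and 19 proximal genes then differed in place of 13 and 9. SEs were smaller in this fit, such as 0.092 against 0.157 by DESeq2 for Kcnq1ot1 in distal Del(CBS1-5). Why they were smaller was not tested, and no allele effect is read from the calls gained. DESeq2 gave 5 in distal Del(CBS1-2), 1 in each of the 3 longer deletions in distal tissue, 1 in proximal Del(CBS1-3), 1 interaction in Del(CBS1-2), and 14 proximal genes differing among genotypes. limma gave 1 in distal Del(CBS1-2) on log2(FPKM + 0.1), 1 on log2(FPKM + 1) and 0 without its filter, and 0 in proximal Del(CBS1-2) on all 3. The FPKM filter left out Kcnq1ot1. With the muscle score as a covariate, 0 were called in Del(CBS1-2) in either tissue and 2 distal and 9 proximal genes differed among genotypes, Rian and Plagl1 among the proximal ones only with it. Apart from the fits without the count filter, shares of all genes called are not set beside the counts of these alternatives, here or below.

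Between genotypes the replicate number is only a name: same-numbered libraries correlated at a median of −0.035 distally and −0.042 proximally. With that number as a block, 7 distal genes differed among genotypes, 0 were called in proximal Del(CBS1-2), where Phlda2 had an adjusted p of 0.0686, and 1 in proximal Del(CBS1-3), where Kcnq1ot1 had 0.0480. The embryo block between tissues added 1 interaction in Del(CBS1-2), Zim1, and changed no other call beyond those given with the results.

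Leaving out single libraries gave 24 to 26 calls between WT tissues and 33 to 35 over the 6 genotypes. It gave 4 to 14 distal and 6 to 12 proximal genes differing among genotypes. In distal Del(CBS1-2) it gave 0 to 4 calls, the 4 without WT library 3. In distal Del(CBS1-3) it gave 0 to 1 (the 1 without WT library 1), in Del(CBS1-4) 0 to 1 (without WT library 2) and in Del(CBS1-5) 0 to 1 (without its own library 3). In proximal Del(CBS1-2) it gave 0 to 1 and in proximal Del(CBS1-4) 0 to 2, the 2 without WT library 2. Followed over the settings were the single genes that edgeR called, the called correlations and Zim1 and Kcnq1ot1 singled out after their values were seen. They kept their direction and side of the threshold in 517 cases, with 40 losing and 6 gaining the call, and in 1656 cases that left out a library, with 120 losing it. In tests among the 6 genotypes only the side of the threshold was followed. Outside that tally, genes that edgeR had not called in a comparison were called 96 times without the count filter, 17 times by DESeq2, 4 with a replicate block, 2 with the muscle score, 1 with DESeq2's size factors and 1 by limma without its filter. Leaving out a library gave 73 such calls, of 26 genes and comparisons, 32 of the 73 being Ascl2 between the tissues. Reads were fewest for Ascl2, Dio3, Slc22a18, Kcnq1, Nap1l5 and Rtl1, at 5.64 to 48.9 a library.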

Other observations

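Related genes outside the 36 also differed among the 6 genotypes. In distal tissue 8 of 20 genes of imprint machinery passed, 12 of 22 of the IGF axis and 9 of 31 of the other imprinted genes, against 19.7% of all genes. In proximal tissue 5 of 20, 11 of 24 and 6 of 34 passed, against 15.1%. Among them Zfp57, the zinc finger protein that keeps imprints methylated, had an adjusted p of 0.00782 in distal tissue and its largest difference from WT was −0.35 on the log2 scale. Pappa, a protease that frees IGF from its binding proteins, passed in both tissues (adjusted p = 0.00448 distally and 0.00515 proximally), with largest differences of −0.49 and 0.43 on the log2 scale. Igf2bp1, an RNA-binding protein that binds Igf2 mRNA, passed in both as well (adjusted p = 0.00463 and 0.0171), with largest differences of −0.43 and −0.46.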
